A study of Drosophila melanogaster with 6 samples.

Results

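Cytoplasmic ribosomal protein genes were followed in eye imaginal discs of mir-998 mutant and wild type larvae. Members were the genes whose platform symbol starts with RpL or RpS followed by a digit or P, and each was read from its probe set with the highest mean. This gave 41 genes of the 11982 genes read, from 47 of 18769 probe sets. The mutant group was *w; mir-998[exc222]*, homozygous for an allele that keeps a piece of a P element inside the mir-998 hairpin, in the last intron of *dE2f1*, and the wild type group was *w1118*. Each group had 3 arrays of discs from wandering larvae of the third instar raised at 25 °C. The allele came from a single excision event, and it was described as null for *mir-998* while leaving *dE2f1* and *mir-11* expression in place. The labels call the arrays biological replicates and say nothing of separate crosses or cultures. A p-value here thus reflects how far these samples spread, part of which may be technical. In limma, the model used for single genes, the spread of a gene is also moderated by the spread over all probe sets. The values are log2 expression values after robust multiarray averaging (RMA), a method that corrects background, equalizes the arrays and reduces the probes of a set to 1 value.

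Ribosomal proteins form the large and the small subunit of the ribosome together with the rRNAs, and most of them are needed in equal numbers in every growing cell. Their mRNAs are among the most abundant of any cell. In *Drosophila*, loss of a single copy of many of these genes gives the Minute phenotype of slow development and thin bristles, and Minute cells of an imaginal disc are lost when they compete with wild type neighbours. Some of the proteins are encoded by more than one gene, and several of the extra copies, such as *RpL22-like* and *RpS19b*, are known for expression in the germline.

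Of the 41 genes, 21 encode large subunit proteins, 15 encode small subunit proteins and 5 carry symbols ending in -like. RefSeq (Release 6, used for names and chromosome arms only) lists 93 symbols of this form, and the other 52, among them *sta*, *RpL22*, *RpS10b* and *RpS19a*, are not analysed here. The members lay on all major arms, 14 on 3R, 10 on 2R, 9 on 2L, 5 on 3L and 3 on X. A single probe set served 37 of them, and 17 of the probe sets read (14 ending in _s_at and 3 in _a_at) can be shared by several transcripts. The allele itself lies on 3R. The log2 difference of the mutant from wild type had a median of -0.023 over the 14 members on 3R and of -0.007 over the 27 on other arms.

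The members fell into a large bright group and a small dim one (plot of the value of each gene on each array). In 29 genes the mean log2 value was above 13, with every value between 13.40 and 14.15, and these were 18 large subunit and 11 small subunit members. The highest value on each array was 14.16 to 14.25, so these probe sets lay close to the top of the scale. Of the 71 genes read above 13, these members made up 40.8%. In 8 genes the mean was under 7, with values from 4.33 to 6.99, against 3.63 to 3.72 for the bacterial *trp* control probe sets that give the background. The remaining 4 genes, *RpL34a*, *RpL24-like*, *RpL7-like* and *RpLP0-like*, had means of 12.72, 11.59, 11.45 and 10.10. The limits of 13 and 7 were set after the values were seen. *RpL27*, at 13.58, was the nearest gene above the limit of 13 and *RpL34a* the nearest below it. No member lay between 7 and 10.10. Probe sets differ in how well they bind, so these values place each gene on the scale of the array and do not order the genes by the number of their transcripts.

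**Figure D1:**
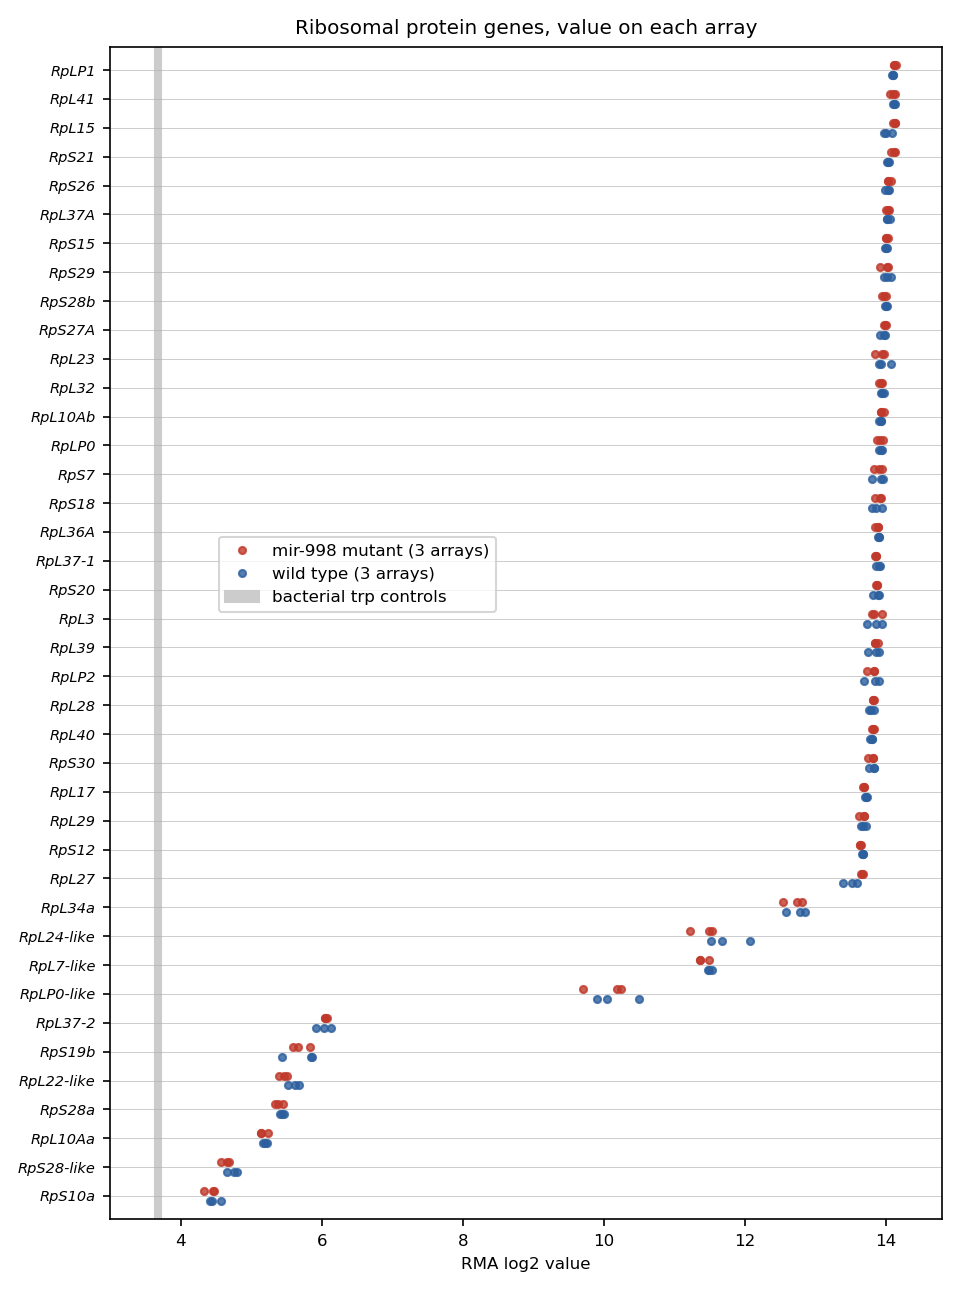
RMA log2 value (horizontal axis) of 40 of the 41 ribosomal protein genes (vertical axis, ordered by mean), with 3 mir-998 mutant arrays in red above 3 wild type arrays in blue. The grey band is the range of the bacterial *trp* controls, 3.63 to 3.72. The 29 bright genes form a column between 13.40 and 14.15, and the dim genes shown lie between 4.33 and 6.13.

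The bright genes had almost the same value on all 6 arrays. Their range over the 6 arrays had a median of 0.08, against 0.36 over all genes read. *RpS15*, a protein of the head of the small subunit, had values of 14.03, 14.00 and 14.00 in the mutant, against 13.99, 14.02 and 14.01 in wild type. That is a range of 0.04, the narrowest among the members. *RpL27*, a large subunit protein, had the widest range of the bright genes, 0.28, and *RpL23* followed with 0.22. The SD among replicates of the bright genes had a median of 0.023 in the mutant and 0.032 in wild type, against 0.090 in the mutant and 0.140 in wild type over all genes read.

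None of the 41 ribosomal protein genes passed the threshold of limma, an adjusted p of 0.05, in either direction. Over all genes read, 0.968% were called higher in the mutant and 0.96% lower. At an unadjusted p under 0.05 there was 1 member, against 13.9% of all genes read. The log2 difference had a median of -0.017 over the members, against 0.003 over all genes read. It was -0.007 for the large subunit, -0.020 for the small subunit, and -0.107 for the 5 -like genes. The difference was positive in 16 members and negative in 25. With each array centred on its own median the median difference turned to 0.013, with 28 positive and 13 negative. Of all genes read, 48.9% were negative as deposited and 40.5% with centring, where their median was 0.033. The counts move with the scaling, so no direction can be read from them. The median of the members lay below that of all genes read in both settings. Complete separation of the arrays was seen in 4 members with all mutant values above all wild type values, where 9.37% of all genes read showed it. It was seen in the other direction in 4 members, where 8.73% of all genes read showed it.

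The differences were also small in size (plot of the difference of each gene with its interval). The absolute log2 difference had a median of 0.027, against 0.093 over all genes read. The 95% interval of the fold change lay within 1.2-fold in either direction for 33 of 41 members and for 28 of the 29 bright ones, while 29.3% of all genes read had such an interval. The bright exception was *RpL27*. In 39 members the interval lay within 1.5-fold, and the exceptions were *RpL24-like* and *RpLP0-like*. With 3 arrays a group, changes that lie inside these intervals are not excluded. The intervals are of the array signal, and a larger change in transcripts is not excluded where that signal is compressed. The widths also draw on the spread over all probe sets through limma, and not only on the replicates of each gene.

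**Figure D2:**
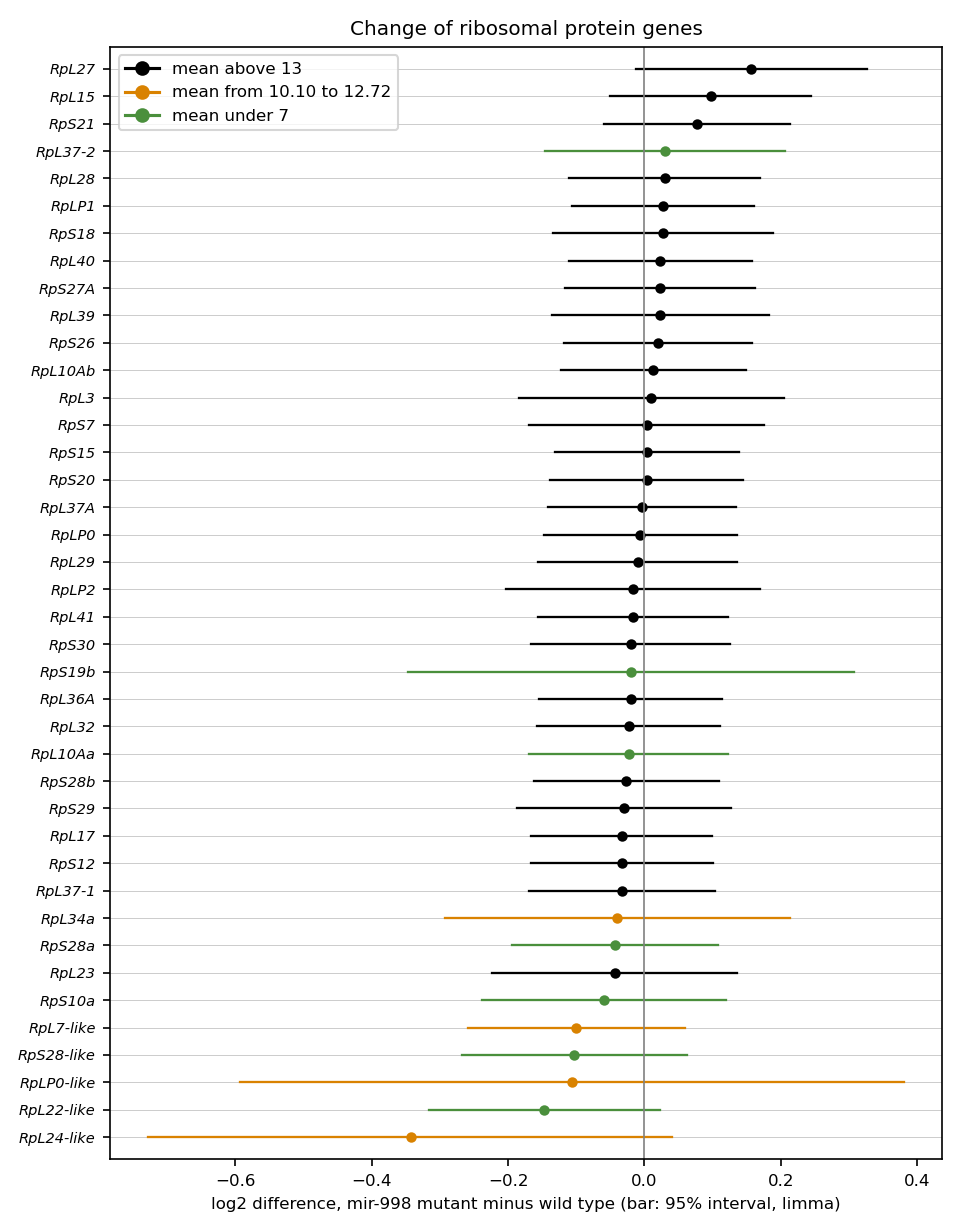
Log2 difference of the mir-998 mutant from wild type (horizontal axis) for 40 of the 41 ribosomal protein genes (vertical axis, ordered by difference), with 3 arrays a group. Points are limma estimates and bars their 95% intervals, in black for means above 13, orange for the 4 genes from 10.10 to 12.72 and green for means under 7. Every interval shown includes 0, the gene left out is the 1 member whose interval does not (it lies below 0), and the intervals of *RpL24-like* and *RpLP0-like* are the widest.

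Other bright genes were set beside these members. The 42 other genes read above 13 had a median range of 0.20 over the 6 arrays, and the median SD among replicates was 0.059 in the mutant and 0.091 in wild type. Their absolute difference had a median of 0.065, and 24 of the 42 had intervals within 1.2-fold. In that group the differences reached from -0.62 to 0.94, and 1 gene was called in each direction, *CG15353* higher by 0.94 and *fabp*, a fatty acid binding protein, with a log2 difference of -0.37. Only 11 other genes were as bright as the bright members, at a mean of 13.58 or more. Their absolute difference had a median of 0.033, against 0.023 for the bright members, and none of them was called (limma). Near the top of the scale an array can compress differences, and the part of this in the small values was not tested.

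**Figure D3:**
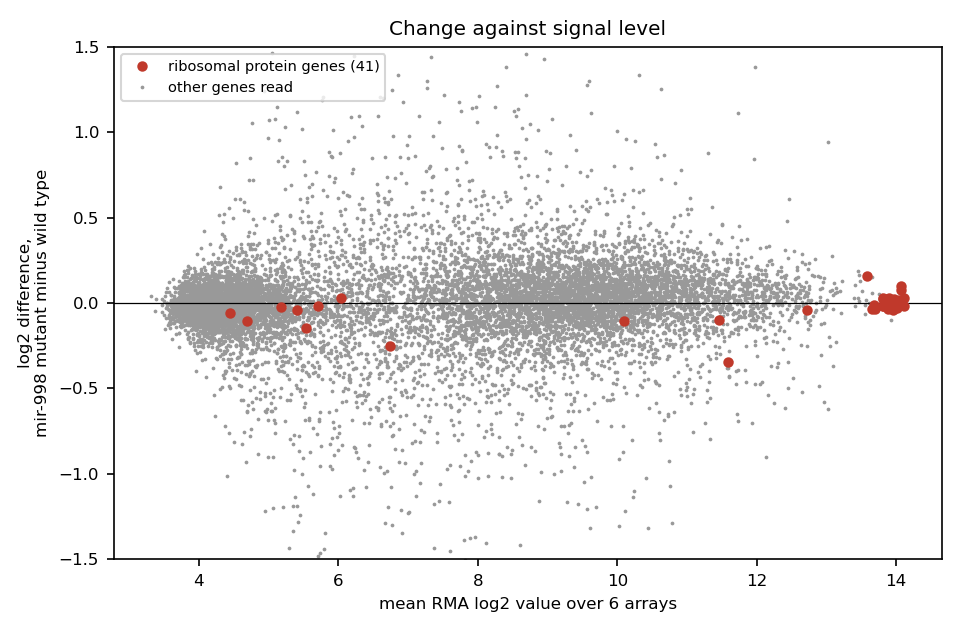
Log2 difference of the mir-998 mutant from wild type (vertical axis) against the mean RMA log2 value over 6 arrays (horizontal axis). Red points are the 41 ribosomal protein genes and grey points the other genes read. The vertical axis ends at 1.5 in both directions, which leaves out 77 genes, none of them a member, and the bright members lie in a tight group at the right end near 0.

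The members with the 3 largest positive differences belonged to the bright group. *RpL27* had values of 13.66, 13.68 and 13.65 in the mutant, against 13.40, 13.53 and 13.59 in wild type. All mutant values were higher, and wild type replicate 1 was the lowest of the 6. The log2 difference was 0.16 (standard error 0.071, adjusted p = 0.474 from limma), a fold of 1.115 with an interval from 0.991 to 1.254. Without wild type replicate 1 it was 0.10, and without wild type replicate 3 it was 0.20.

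*RpL15*, a large subunit protein, had 14.13, 14.14 and 14.10 in the mutant, against 14.09, 14.01 and 13.98 in wild type. *RpS21*, a small subunit protein whose loss in *Drosophila* causes overgrowth of the hematopoietic organs, had 14.13, 14.12 and 14.08 in the mutant, against 14.02, 14.03 and 14.05 in wild type. In both genes the arrays of the groups did not overlap, yet the gap between the lowest mutant and the highest wild type value was at the level of the second decimal for *RpL15*. The log2 differences were 0.097 (standard error 0.061, adjusted p = 0.656) for *RpL15* and 0.077 (standard error 0.057, adjusted p = 0.715) for *RpS21*, both from limma. *RpL28* and *RpL37-2* followed with 0.030 each, and their groups overlapped.

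The acidic proteins of the ribosomal stalk, which recruits translation factors to the large subunit, differed between the groups by at most 0.027 log2 units. *RpLP1* had 14.12, 14.12 and 14.15 in the mutant, against 14.09, 14.11 and 14.11 in wild type, without overlap, for a log2 difference of 0.027 (standard error 0.056). *RpLP0*, the base of the stalk, had 13.88, 13.92 and 13.96 in the mutant, against 13.90, 13.93 and 13.95 in wild type. *RpLP2* had 13.84, 13.83 and 13.74 in the mutant, against 13.91, 13.85 and 13.70 in wild type. The groups of *RpLP0* and *RpLP2* overlapped, and the differences were -0.007 and -0.017.

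*RpL40* and *RpS27A* are made as fusions with ubiquitin and so supply the cell with both a ribosomal protein and ubiquitin. *RpL40* had 13.82, 13.80 and 13.84 in the mutant, against 13.78, 13.80 and 13.81 in wild type. *RpS27A* had 13.97, 13.99 and 14.00 in the mutant, against 13.92, 13.99 and 13.98 in wild type. Both had a log2 difference of 0.023, with intervals from -0.111 to 0.158 and from -0.116 to 0.162, and their groups overlapped.

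*RpL32*, also called *rp49*, is a standard reference gene of quantitative PCR in *Drosophila* and served as one in the study. Its values were 13.95, 13.91 and 13.93 in the mutant, against 13.97, 13.94 and 13.95 in wild type. The groups overlapped and the 6 arrays spanned 0.06. The log2 difference was -0.023 (standard error 0.056, limma adjusted p = 0.939). Its interval from -0.158 to 0.111 corresponds to folds from 0.896 to 1.080.

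Among the other bright genes, *RpL17* and *RpS12* had all mutant values below all wild type values with very little spread. *RpS12*, which in *Drosophila* takes part in the competition between Minute and wild type cells, had 13.64, 13.63 and 13.65 in the mutant, against 13.68, 13.66 and 13.68 in wild type. *RpL17* had 13.68, 13.69 and 13.69 in the mutant, against 13.73, 13.72 and 13.71 in wild type. Both had a log2 difference of -0.033, with standard errors of 0.055 (limma adjusted p = 0.906). These errors were set largely by the spread over all probe sets, as the SD of *RpL17* was 0.006 in the mutant and 0.010 in wild type. *RpL41*, which encodes a very short basic peptide of the large subunit, had 14.06, 14.14 and 14.10 in the mutant, against 14.12, 14.13 and 14.10 in wild type, and the groups overlapped.

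For 3 ribosomal proteins both genes of a pair could be read, and 1 gene of each was bright and the other dim (plot of the pairs of genes). *RpL10Ab* and *RpL10Aa* encode forms of the large subunit protein RpL10A, and their protein sequences were not compared here. *RpL10Aa* had 5.14, 5.14 and 5.23 in the mutant, against 5.17, 5.19 and 5.22 in wild type. *RpL10Ab* had 13.93, 13.93 and 13.97 in the mutant, against 13.91, 13.94 and 13.94 in wild type. *RpL10Ab* was thus bright on every array and *RpL10Aa* was dim on every array.

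The pair of the small subunit protein RpS28 had the same form. *RpS28a* had 5.38, 5.45 and 5.33 in the mutant, against 5.46, 5.40 and 5.43 in wild type, and *RpS28b* had 14.00, 13.98 and 13.95 in the mutant, against 14.00, 14.02 and 13.99 in wild type. Another symbol, *RpS28-like*, lay near background, with 4.68, 4.57 and 4.65 in the mutant, against 4.80, 4.66 and 4.75 in wild type. *RpL37-2* had 6.08, 6.04 and 6.05 in the mutant, against 6.03, 5.92 and 6.13 in wild type, where *RpL37-1* was bright on all arrays. *RpS10a* was the dimmest member, with 4.33, 4.45 and 4.47 in the mutant, against 4.44, 4.57 and 4.42 in wild type. Its mean and that of *RpS28-like* were within 1 log2 unit of the background, where 29.7% of all genes read lay, so a fall in these genes could not be seen.

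The gap between the members of a pair was taken within each array and compared between the groups, for 4 pairs, of which *RpL37-2* with *RpL37-1* was added after the values were seen. The gap of *RpL10Aa* to *RpL10Ab* changed by -0.037 log2 units (exact permutation test, two-sided, p = 0.3), that of *RpS28a* to *RpS28b* by -0.017 (exact p = 1.0), and that of *RpL37-2* to *RpL37-1* by 0.063 (exact p = 0.7). For *RpLP0-like* and *RpLP0*, genes of related proteins, the change was -0.100 (exact p = 0.8). All adjusted p were 1.0, and with 3 arrays against 3 the smallest p that the 20 assignments allow is 0.1. In the RpS28 and RpLP0 pairs the mutant and wild type means of the gap differed by less than the SD among the arrays of either group. In the RpL10A pair they differed by more than both SDs, 0.029 in the mutant and 0.015 in wild type. In the RpL37 pair they differed by more than the SD of the mutant, 0.025, but by less than that of wild type, 0.119.

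**Figure D4:**
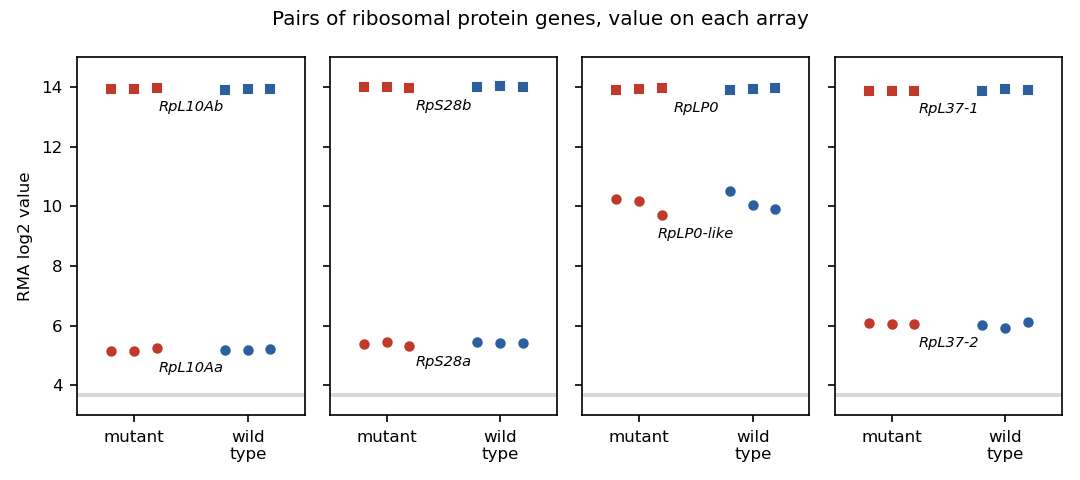
RMA log2 value on each array (vertical axis) of 4 pairs of ribosomal protein genes, with 3 mir-998 mutant arrays in red to the left of 3 wild type arrays in blue. Squares are *RpL10Ab*, *RpS28b*, *RpLP0* and *RpL37-1*, all near 14, circles are their partners, and the grey band is the range of the bacterial *trp* controls. Probe sets differ in binding, so the distance between squares and circles is not a ratio of transcripts.

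*RpL22-like*, a form of RpL22 known from the testis, had 5.51, 5.47 and 5.39 in the mutant, against 5.62, 5.52 and 5.67 in wild type. The groups did not overlap, with mutant replicate 1 next to wild type replicate 2. The log2 difference was -0.147 (standard error 0.071, adjusted p = 0.51 from limma). Of the germline markers, *vas* averaged 4.42 and *osk* 4.35 over the 6 arrays, and 11 of 16 were within 1 log2 unit of the background. The exception far above it was *ovo*, also active in the epidermis, at 11.58, and *piwi* followed at 5.51. *RpS19b* had 5.83, 5.66 and 5.59 in the mutant, against 5.85, 5.43 and 5.86 in wild type, and the groups overlapped. The log2 differences of the 8 dim genes were negative in 7, against 48.9% of all genes read, with a median of -0.052. With each array centred on its median they were negative in 5, against 40.5% of all genes read, with a median of -0.022. The median over all genes read was 0.003 as deposited and 0.033 with centring. The count thus depends on the scaling, while the median of the dim genes lay below that of all genes read in both settings.

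The widest ranges over the 6 arrays, 0.85 for *RpL24-like* and 0.80 for *RpLP0-like*, belonged to genes between the bright and the dim group. *RpL24-like*, *RpL7-like* and *RpLP0-like* are related to proteins known in yeast as assembly factors of the large subunit. The yeast relatives of *RpL24-like* and *RpLP0-like* occupy the place of a ribosomal protein until the subunit matures. *RpL24-like* had 11.53, 11.49 and 11.23 in the mutant, against 12.08, 11.68 and 11.52 in wild type. Mutant replicate 3 was the lowest and wild type replicate 1 the highest, and the groups met at 11.53 and 11.52. The log2 difference was -0.34 (standard error 0.16, adjusted p = 0.493 from limma), the largest in size among the members.

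*RpLP0-like* had 10.24, 10.19 and 9.70 in the mutant, against 10.50, 10.04 and 9.91 in wild type. The same arrays stood at the ends, and the log2 difference was -0.107 (standard error 0.203). *RpL7-like* had 11.49, 11.36 and 11.36 in the mutant, against 11.48, 11.49 and 11.54 in wild type, with a difference of -0.100 (standard error 0.066). *RpL34a*, a large subunit protein, had 12.81, 12.74 and 12.54 in the mutant, against 12.85, 12.78 and 12.58 in wild type. Its groups overlapped over nearly their whole range, for a difference of -0.040 (standard error 0.105).

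The arrays at the ends were also those at the ends of a measure of RNA quality (plot of the control transcripts beside these genes). The array carries probe sets near the 3′ and the 5′ end of some transcripts, and a larger gap between them means that less of the labelled cRNA reached the 5′ end. The mean gap of 4 such control sets (Act5C, actin, Gapdh and eIF4A) was 2.54, 1.88 and 2.86 log2 units in the mutant, against 0.95, 1.91 and 2.58 in wild type. On this mean wild type replicate 1 had the smallest gap and mutant replicate 3 the largest. In Act5C alone the largest was mutant replicate 1, at 3.57. A second Gapdh pair, left out of the mean, had 3.28, 3.18 and 3.15 in the mutant, against 2.66, 3.24 and 3.49 in wild type. There wild type replicate 1 was again the smallest, but wild type replicate 3 was the largest. Without wild type replicate 1 the log2 difference of *RpL24-like* was -0.18 and that of *RpLP0-like* 0.07. Without wild type replicate 3 they were -0.46 and -0.23. When the gap entered the fit as a covariate, a setting added after seeing the data, they were -0.15 and 0.13. Of the 29 bright members, 9 were highest and 10 were lowest on wild type replicate 1, ties included. Of the 11982 genes read, 3158 were highest and 2563 were lowest on that array. The part of RNA quality in the values of the bright members was not tested.

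**Figure D5:**
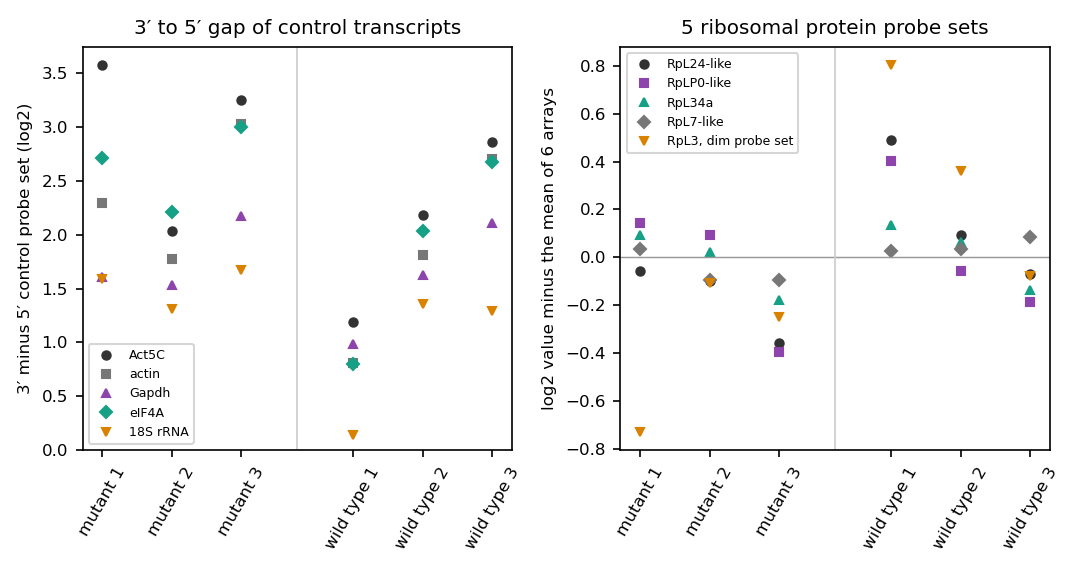
Left, 3′ minus 5′ control probe set in log2 units (vertical axis) for 5 control transcripts on each array. Right, log2 value minus the mean of the 6 arrays for 5 ribosomal protein probe sets, with mir-998 mutant arrays to the left of wild type arrays in both panels. Wild type replicate 1 has the smallest gap in every control, and *RpL24-like*, *RpLP0-like*, *RpL34a* and the dim probe set of *RpL3* are highest on it.

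In 4 genes, *RpL3*, *RpS7*, *RpS29* and *RpS30*, 6 further probe sets could be read. None of the 47 probe sets of the members was called, against 300 of all 18769 probe sets. At that share a set of 47 can hold none, so the count sets the members apart from nothing. *RpL3*, whose protein reaches to the peptidyl transferase centre of the large subunit, had 13.81, 13.83 and 13.95 in the mutant, against 13.74, 13.87 and 13.95 in wild type on its brightest probe set. The difference there was 0.010 (standard error 0.081). A dimmer probe set of *RpL3* had 7.91, 8.53 and 8.39 in the mutant, against 9.44, 9.0 and 8.56 in wild type. All mutant values were lower, with a log2 difference of -0.72 (standard error 0.25, limma adjusted p = 0.325). It was -0.50 without wild type replicate 1, -0.94 without wild type replicate 3 and -0.44 with the 3′ to 5′ gap as a covariate. None of these passed the threshold. The dimmest *RpL3* probe set did not share this, at 0.00. *RpS29* had a second bright probe set with a difference of 0.030, beside -0.030 on the first. The dimmer probe sets of *RpS30* and *RpS7* differed by 0.26 (standard error 0.293) and -0.15 (standard error 0.129).

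Other genes of ribosome production and protein turnover gave no call either (limma, adjusted p at or under 0.05), in lists chosen with earlier results of these data known. The 25 ribosome biogenesis genes read had a median log2 difference of 0.037, with 1 at an unadjusted p under 0.05, which 13.9% of all genes read passed. Their brightest members were the nucleoplasmins *Nlp*, at -0.02, and *Nph*, at -0.10. The 26 translation factors had a median of 0.038 and 2 at that p, with *eEF5* at 0.00 and *eEF1gamma* at 0.02. The 12 regulators of growth and of ribosomal protein mRNAs had a median of -0.023 and 2 at that p, with *larp* at 0.11 and *S6k*, the kinase of ribosomal protein S6, at 0.16. The 69 mitochondrial ribosomal protein genes, which serve the separate ribosome of the mitochondrion, had a median of 0.030 and 5 at that p, with *mRpL47* at 0.05 and *mRpL12* at 0.18. The 40 proteasome subunit genes had a median of 0.008 and 2 at that p, with *Prosbeta3* at -0.05 and *Prosalpha2* at 0.08. The absolute difference had medians of 0.063, 0.060, 0.135, 0.077 and 0.048 over these 5 lists in the order given.

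The tissue was checked against markers as the log2 of their summed levels. The 11 eye disc markers read, all above background, summed to 14.12 to 14.26 in the mutant and 13.65 to 14.22 in wild type. All 11 had a positive log2 difference, with a median of 0.25, and 9 were lowest on wild type replicate 3. None of them was called. Salivary gland markers varied within both groups, from 12.83 to 16.02 in the mutant and from 12.90 to 15.55 in wild type, and fat body markers from 8.34 to 11.61 in the mutant and from 8.84 to 11.99 in wild type. The 13 hemocyte markers summed to 13.09 to 13.31 in the mutant, against 12.54 to 12.81 in wild type, with *NimC1* called higher in the mutant. The 10 muscle markers were at 14.30 to 14.75 in the mutant and 14.69 to 15.05 in wild type. All 10 had a negative log2 difference, with a median of -0.405, and none was called. In 5 of them all mutant values were below all wild type values, where 8.73% of all genes read showed this. Over the same arrays the median deviation of the ribosomal protein genes from their own means was 0.005, -0.002 and -0.012 in the mutant, against 0.012, 0.012 and 0.003 in wild type. The part of other tissues in these values was not tested. In discs made of several cell types, fewer cells of a type and less RNA per cell cannot be told apart, and scaling the arrays to a common distribution removes any change in total mRNA per cell.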

How the data were processed

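Total RNA of larval eye discs (6 µg per labelling) was hybridised to Affymetrix Drosophila Genome arrays, 3 of mir-998 mutants and 3 of wild type. The authors deposited log2 values from RMA (affy package), which subtracts background, quantile normalizes the arrays and summarizes probes. Differences near the top or bottom of such a scale can be compressed, and the number of arrays limits precision. Of 18952 probe sets, 183 controls were left out. The rest entered a model in R 4.3.3 with limma 3.58.1 (lmFit, eBayes, all 6 arrays, no covariate), with Benjamini-Hochberg adjustment over 18769 probe sets and a threshold of 0.05. The fit was tested on simulated data. A platform annotation gave 1 gene for 13647 probe sets and several for 402, which were not named, and 4720 are unnamed here. The members and lists were chosen with earlier results of these data known. Genes named are the 5 largest positive differences, 4 of the 5 largest negative ones, the 3 brightest and the 3 dimmest members, the pairs, the stalk genes, *RpL40*, *RpS27A* and *RpL32*. *RpS15*, *RpS12*, *RpL17*, *RpL23*, *RpL34a*, *RpL7-like*, *RpS19b* and the further probe sets were named after their values were seen. Replicate numbers were checked as pairs by correlating deviations from the group means (0.19, -0.23 and 0.29 for numbers 1, 2 and 3). This check cannot settle whether the numbers mark arrays handled together, since each mean rests on 3 arrays. The main fit did not use them as pairs. The single values of 1 member are not reported here. Sequences were not used here.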

Additional observations from a re-analysis of the deposited data

How the results depend on the processing

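No ribosomal protein gene was called in either direction in any of the 17 alternatives run: another quantile normalization, centring each array on its median, weights for the arrays, robust eBayes with an intensity trend, dim probe sets left out (mean at or under 4.72, which removes 2 members), a replicate block, the loss of each array in turn, the mean or the most changed of a gene's probe sets, a threshold of 0.01, adjustment over named probe sets only and, chosen after the data were seen, the 3′ to 5′ gap as a covariate. The lowest adjusted p of a member was 0.21 (limma). With the replicate block, 0 members were called and 96 genes read were higher and 128 lower, against 116 and 115 without it. Not every array correlates best with its own number. The threshold of 0.01 and the adjustment over named probe sets leave the differences as they are and were not counted here. Under the other alternatives the 22 genes chosen by the naming rule had 328 values. Of these, 18 turned to the other direction and 310 did not. Among the 310 was *RpL10Ab* without mutant replicate 3, at 0.0.

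The median difference of the members was -0.001 with another quantile normalization, 0.013 with centring and -0.004 with the covariate, and -0.022 to 0.002 with an array left out. For the large subunit it was 0.001, 0.023 with centring and -0.010 to 0.003 with an array left out. For the small subunit it was 0.003 with quantile normalization and with either rule for several probe sets, 0.010 with centring, and -0.030 to 0.005. Centring turned *RpL41* (0.013), *RpL10Aa* (0.007), *RpS28b* (0.003), *RpLP0* (0.023), *RpLP2* (0.013) and *RpL32* (0.007), and quantile normalization turned *RpLP0* (0.009) and the gap of *RpS28a* to *RpS28b* (0.008). The covariate turned *RpLP0-like* (0.128), *RpL10Ab* (-0.001) and *RpLP2* (0.052). With an array left out, *RpL37-2* ranged from -0.023 to 0.082, *RpL41* from -0.037 to 0.003, *RpLP0* from -0.027 to 0.013, *RpLP0-like* from -0.227 to 0.068 and *RpLP2* from -0.077 to 0.028. The gap of *RpL37-2* to *RpL37-1* then ranged from -0.003 to 0.112 and that of *RpLP0-like* to *RpLP0* from -0.232 to 0.092. The median deviation was -0.001 in mutant replicate 3 and 0.004, -0.002 and 0.016 in wild type replicates 1, 2 and 3 with quantile normalization. With centring it was 0.033 and 0.017 in mutant replicates 1 and 2 and -0.010 and -0.018 in wild type replicates 1 and 3, and in mutant replicate 1 it ranged from 0.006 to 0.014 with an array left out. Centring subtracts the median of each array, which was 5.25, 5.26 and 5.28 in the mutant, against 5.30, 5.28 and 5.30 in wild type. It therefore raises the difference of every gene by the same amount, and the genes it turned had differences just below 0. The cause of the other shifts was not tested.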
